A study of Mus musculus with 6 samples.

Results

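The SLC38 genes encode sodium-coupled transporters of neutral amino acids, and 10 of them were followed in whole mouse ovary. The members are the rows whose deposited symbol is Slc38a1, Slc38a2, Slc38a3, Slc38a4, Slc38a5, Slc38a6, Slc38a7, Slc38a9, Slc38a10 or Slc38a11, which are 10 of 46078 genes in the tables. A further gene of the family is not on this list and was not analysed here. Libraries were made from ovaries of C57BL/6 females aged 8 to 9 weeks, 3 from the control group and 3 from the group given cyclophosphamide, an alkylating chemotherapy drug (abbreviated CTX). The labels used here give neither what the controls received nor the dose, route and time of treatment. They also do not tie the libraries to separate animals, and p-values then measure the spread of these libraries alone, which can be technical. The question of the series is what cyclophosphamide does to gene expression in the ovary. The family was chosen by a measured value, the difference of Slc38a3 between CTX and control when CTX 1 is left out, so member levels are a description and no support is drawn from them. Values stand in the order of libraries 1, 2 and 3 of a group.

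Transporters of this family carry glutamine, alanine, serine, asparagine or histidine together with sodium. The system A members move small neutral amino acids into cells, and the system N members prefer glutamine, asparagine and histidine and can run in either direction, with a proton exchanged for the sodium. Other members sit on the lysosome, where amino acids are exported and sensed. In the ovary, cumulus granulosa cells take up amino acids such as alanine through SLC38A3 and pass them to the oocyte through gap junctions, and the oocyte is known to promote Slc38a3 expression in those cells.

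The values are taken as RPKM, which are reads scaled by gene length and by library depth. Comparisons of levels between genes rest on the gene lengths the authors used, which are not known. The depth to which the values are scaled was 15800000 to 16800000 reads for controls and 17200000 to 22100000 for CTX libraries. The libraries of a group were not alike. In CTX 1, 13629 genes reached 1 RPKM, against 14275 to 14511 in the other libraries. Its values summed to 389708 RPKM, against 328258 to 347452 in the others. How far this enters the CTX 1 levels of the members was not tested. The luteal list (10 marker genes of the corpus luteum) averaged 8.14 and 8.39 on the log2(RPKM + 1) scale in controls 1 and 2 and 8.49 in CTX 1, against 6.35 in control 3 and 6.45 and 6.42 in CTX 2 and 3. The granulosa list (11 genes) ran the other way, with 5.99, 5.85 and 4.82 in controls 1 and 2 and CTX 1, against 6.91, 6.98 and 6.99 in control 3 and CTX 2 and 3. CTX 2 and CTX 3 were the closest pair of libraries, with a median absolute difference of 0.085 on the log2 scale over 14535 genes, against 0.111 for controls 1 and 2 and 0.405 and 0.416 for CTX 1 with CTX 2 and 3. Over 1867 genes of at most 1000 exonic bases, the median chi-square between CTX 2 and 3 was 1.15, and over 1659 such genes it was 0.968 between controls 1 and 2, the lowest of all pairs, where sampling noise alone gives 0.45. Each library was counted as 1 sample, and these values do not tell separate animals from separate preparations of one RNA.

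Sequence before the start site is shown for 3 members with unlike behaviour across libraries that had an entry in the RefSeq table. They are Slc38a2, the most abundant, Slc38a10, the steadiest, and Slc38a5, with the widest range. Each stretch lies before the RefSeq start site on the GRCm38.p6 build, on the strand of the gene, with bases that GENCODE M21 places in an exon of the gene left out. Capitals mark CG dinucleotides. Slc38a2 is at chr15:96699731-96699978 (minus strand), Slc38a10 at chr11:120151352-120151601 (minus strand) and Slc38a5 at chrX:8271261-8271380 (plus strand). The Slc38a5 stretch lies inside the gene as GENCODE M21 places it, between exons, since that gene starts at 8271133. The bases of its window before 8271133 are not printed either.
Slc38a2: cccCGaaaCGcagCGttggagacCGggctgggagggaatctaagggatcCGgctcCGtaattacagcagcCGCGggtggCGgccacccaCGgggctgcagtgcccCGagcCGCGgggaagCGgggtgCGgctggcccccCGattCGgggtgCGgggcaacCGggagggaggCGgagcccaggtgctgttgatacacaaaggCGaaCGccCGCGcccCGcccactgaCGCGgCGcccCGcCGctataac
Slc38a10: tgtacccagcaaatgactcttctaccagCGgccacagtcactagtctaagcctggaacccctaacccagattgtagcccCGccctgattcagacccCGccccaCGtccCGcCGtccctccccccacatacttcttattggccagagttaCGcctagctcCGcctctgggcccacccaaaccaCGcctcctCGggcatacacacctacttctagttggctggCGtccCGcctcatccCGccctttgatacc
Slc38a5: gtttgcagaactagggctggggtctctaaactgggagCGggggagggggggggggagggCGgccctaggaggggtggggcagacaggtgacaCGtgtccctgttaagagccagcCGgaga
In the full 250 bases before the RefSeq start site, Slc38a2 held 30 CG dinucleotides, Slc38a10 held 13 and Slc38a5 held 8, where the median over 32851 such windows was 6. These counts include the exon bases left out of the printed stretches, and the printed Slc38a5 stretch of 120 bases held 4. The share of windows with fewer was 94.1% for Slc38a2, 68.5% for Slc38a10 and 57.0% for Slc38a5.

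The table held 10 windows for 8 of the members, and Slc38a1 and Slc38a3 had no entry. They were searched on both strands for 5 motifs. The amino acid response element TGATGNAA occurred in 3.45% of all windows, the NR5A motif CAAGGTCA in 1.33%, the forkhead motif TGTTTAC in 3.17% and the GATA motif AGATAA in 9.99%, and none of these letters was in a member window. The cyclic AMP response element TGACGTCA, in 1.55% of all windows, was in that of Slc38a6, where it spanned bases 121 to 114 before the start site. These motifs do not contain one another. Bases outside the windows were not searched, so an element elsewhere in a gene would be missed. At such shares, no match in 10 windows says little about the members.

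Slc38a2 led the family with a mean of 70.9 RPKM over the 6 libraries, followed by Slc38a5 (37.0), Slc38a10 (30.7), Slc38a3 (18.1), Slc38a1 (12.9), Slc38a7 (11), Slc38a9 (4.55), Slc38a6 (2.86), Slc38a4 (2.32) and Slc38a11 (0.432). Neighbours in this order had overlapping ranges across libraries except at 3 steps. Slc38a7 was above Slc38a9, Slc38a9 above Slc38a6 and Slc38a4 above Slc38a11 in 6 of 6 libraries, with no overlap. The order depends on the gene lengths. Read numbers were worked out from RPKM, depth and GENCODE M21 exon lengths, which are 16704 bases for Slc38a9 and 4144 for Slc38a7. On those lengths Slc38a9 came out with more reads than Slc38a7 in every library, about 1222 against 764 in control 1. That reversal follows from the lengths assumed. Slc38a5 changed place, from below Slc38a10 in controls 1 and 2 and CTX 1 to above Slc38a2 in CTX 2 and 3.

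**Figure D1:**
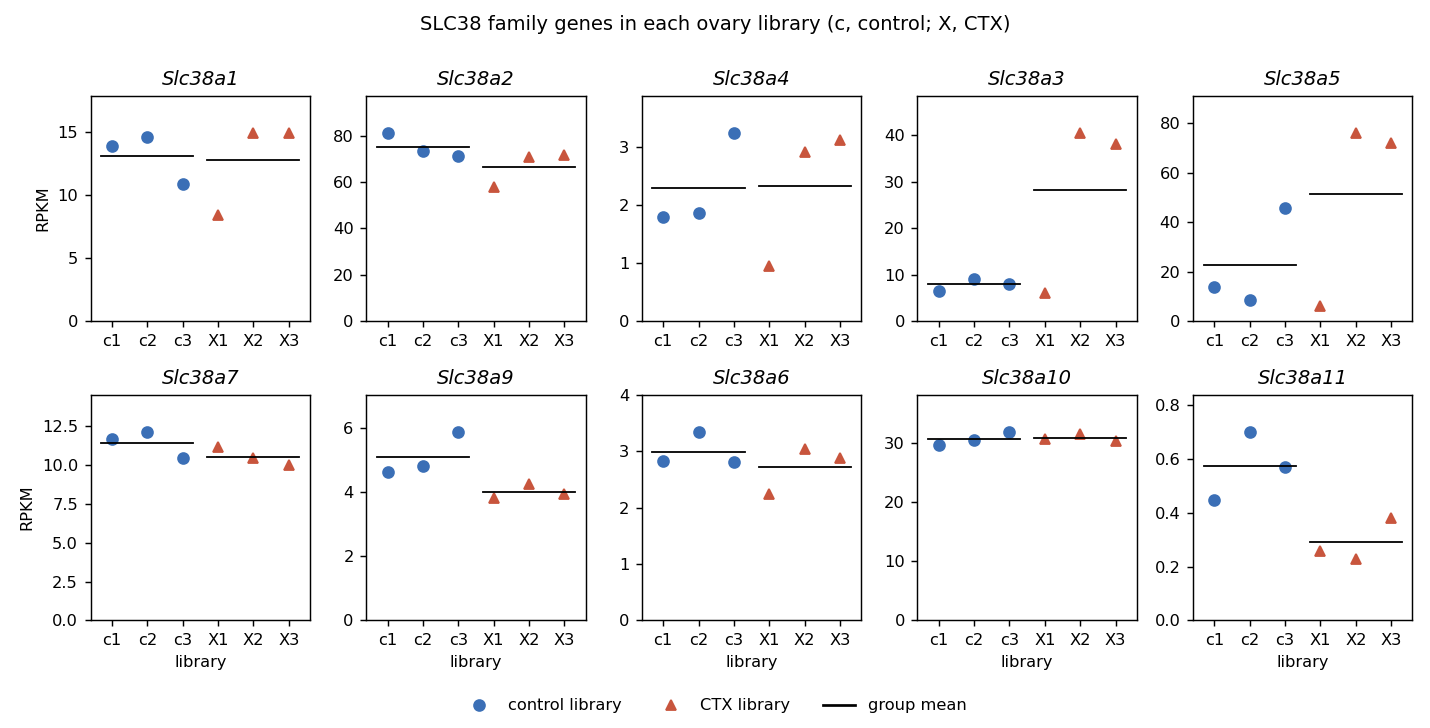
RPKM of each SLC38 gene (vertical axes, each from 0) in the 3 control libraries (circles, c1 to c3) and the 3 CTX libraries (triangles, X1 to X3), with a line at each group mean. Slc38a3 stood at 40.4 and 38.1 in CTX 2 and 3 and at most 9.18 elsewhere, and Slc38a10 stayed between 29.6 and 31.8.

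The system N transporters, Slc38a3 and Slc38a5, were the members that differed most between libraries. Slc38a3 lies on chromosome 9 (107650634 to 107669530, mm10) and encodes SNAT3. Its control levels were 6.49, 9.18 and 8.07 RPKM, and its CTX levels 6.06, 40.4 and 38.1. CTX 2 and 3 were the high libraries, the lower of them 4.15 times the highest control, while CTX 1 was below every control, so the groups overlapped. The control mean was 7.91 ± 1.35 and the CTX mean 28.2 ± 19.2 (± SD over 3 libraries, here and below). About 541 to 775 reads stood behind each control value, and 579, 4715 and 3457 behind those of CTX 1, 2 and 3.

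The fitted difference for Slc38a3, CTX minus control on log2(RPKM + 1), was 1.35 ± 0.68 (SE), with a 95% interval from −0.29 to 2.99. Without CTX 1 it was 2.19 ± 0.15 (interval 1.82 to 2.55). That fit is the one that drew attention to the gene, with a limma adjusted p of 0.0487 among 14535 genes, of which 5 (0.0344%) passed. Without CTX 2 it was 0.91 ± 0.70 and without CTX 3 0.95 ± 0.72.

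Slc38a5, on the X chromosome (8271133 to 8280179), encodes SNAT5. Its control levels were 13.7, 8.46 and 45.65 RPKM, and its CTX levels 6.13, 76.0 and 72.03. Control 3 and CTX 2 and 3 were high and the other libraries low, a range of 12.4 times from the lowest to the highest. The control mean was 22.6 ± 20.1, the CTX mean was 51.4 ± 39.2, and the difference was 0.88 ± 1.05 on the log2 scale (95% interval −1.67 to 3.42). It was 2.01 ± 0.67 without CTX 1 (limma adjusted p 0.272), 1.54 ± 1.13 without control 3, and 0.29 ± 1.13 and 0.33 ± 1.15 without CTX 2 and CTX 3.

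The mean of the granulosa list divided the libraries as Slc38a5 did, though not every gene on it did. In whole tissue more cells of a type cannot be told apart from more RNA per cell. Slc38a3 did not follow this division in control 3, which had a granulosa list mean of 6.91, against 6.98 and 6.99 in CTX 2 and 3, but a Slc38a3 level of 8.07 RPKM, against 40.4 and 38.1. The most abundant granulosa marker, the inhibin gene Inha, had 1982 RPKM in control 3 and 1679 and 1602 in CTX 2 and 3, and 722, 586 and 437 in controls 1 and 2 and CTX 1. Some markers on that list, picked after their values were seen, were higher in CTX 2 and 3 than in control 3. The aromatase gene Cyp19a1 had 8.51 RPKM in control 3 and 32.8 and 33.9 in CTX 2 and 3, and the FSH receptor gene Fshr had 13.0, and 21.3 and 20.3. The inhibin subunit gene Inhbb did not follow the division, with 255 in control 3 and 69.0 and 71.1 in CTX 2 and 3. Controls 1 and 2 had 92.6 and 80.3, and CTX 1 had 20.3. Foxl2 differed little, with 90.3, 91.1 and 90.9 in control, then 78.9, 93.99 and 93.5 in CTX. The part of these genes' cells in the Slc38a3 level was not tested.

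Other marker lists also moved with these libraries. The oocyte list (12 genes) averaged 3.64, 3.47 and 4.59 in control, then 3.06, 4.65 and 4.72 in CTX, and its most abundant gene Padi6 had 30.9, 27.45 and 65.8, then 19.6, 81.3 and 75.3 RPKM. The theca list, led by Aldh1a1 (883, 816 and 1218, then 643, 1342 and 1366 RPKM), had means of 4.42, 4.14 and 5.35, then 4.4, 5.58 and 5.58. The adipocyte list had 0.86, 0.47 and 3.18, then 0.67, 3.87 and 3.86, with 1.63, 0.07 and 90.8, then 0.48, 109 and 97.1 RPKM for the adipsin gene Cfd. The means of these 3 lists were high in control 3 and CTX 2 and 3, as Slc38a5 was. Single genes differed from their list, as theca markers picked after their values were seen show. Insl3 had 9.27, 7.38 and 13.2 RPKM in control, then 16.9, 18.0 and 17.8 in CTX, so it was high in CTX 1 as well. Cyp17a1 had 59.9 RPKM in control 3 and 239 and 224 in CTX 2 and 3, and Hhip had 4.52, and 2.86 and 3.19.

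The globin genes of the erythroid list, whose cell type also uses SLC38A5, were high in CTX 2 and 3 alone, as Slc38a3 was. The 8 genes of the list summed to 18.5, 27.2 and 22.9 RPKM in control, then 21.8, 75.7 and 66.7 in CTX, and 5 of them reached 1 RPKM in some library. Hbb-bs, a hemoglobin gene, was at 10.7, 13.8 and 12.1 RPKM, then 12.1, 39.99 and 35.1. Alas2, the erythroid enzyme gene of heme synthesis, did not follow them, with 0.89, 0.66 and 1.59, then 0.34, 1.1 and 0.83 RPKM, and was highest in control 3. The part of the cells named by these lists in the Slc38a3 and Slc38a5 levels was not tested.

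Liver and kidney are known sites of Slc38a3 expression, and markers of both were listed. In this paragraph Alb, Ttr, Ovgp1, Foxj1 and Sntn were named after their values were seen. Of 5 hepatocyte markers only Apoa1 reached 1 RPKM, with control levels of 8.79, 7.75 and 24.6 and CTX levels of 9.01, 41.65 and 33.5. It was highest in CTX 2 and 3, where Slc38a3 was high, and next in control 3, where Slc38a3 was not. The albumin gene Alb was at most 0.11 and Ttr was listed at 0 in every library. No kidney tubule marker of 5 reached 1 RPKM, and the highest mean was that of the water channel gene Aqp2, at most 0.95. Of 5 oviduct markers, Ovgp1 was at most 2.16 RPKM, Foxj1 at most 0.21 and Sntn listed at 0, while Tppp3 had 4.49, 3.96 and 9.12, then 3.55, 13.9 and 14.9. The endothelial, macrophage and mesothelial lists had means of 3.95 to 4.09, 4.99 to 5.34 and 3.09 to 3.42 in control and 3.68 to 4.10, 4.86 to 5.3 and 2.51 to 2.91 in CTX. Their most abundant genes were Cldn5 with 36.7 ± 5.50 and 32.9 ± 5.70 RPKM in control and CTX, Lyz2 with 241 ± 71.0 and 220 ± 53.5, and Upk3b with 11.6 ± 1.5 and 9.18 ± 2.85.

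**Figure D2:**
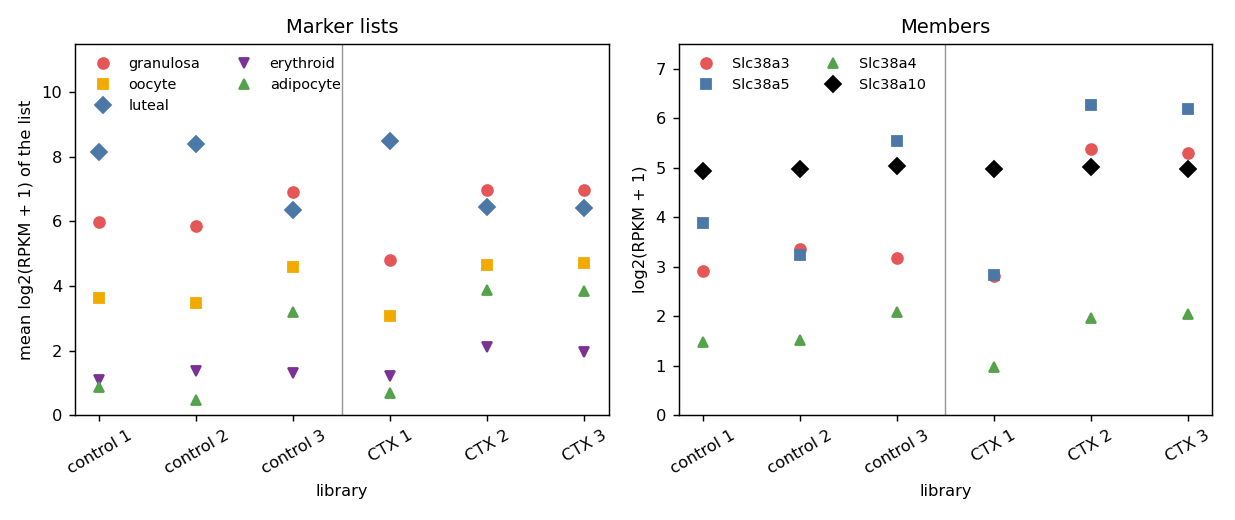
Left, mean log2(RPKM + 1) of 5 marker lists in each library. Right, log2(RPKM + 1) of 4 members. The granulosa and oocyte lists were high in control 3 and CTX 2 and 3, and so was Slc38a5, while Slc38a3 was high only in CTX 2 and 3, with 8.07 RPKM in control 3.

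The rule for the genes most like Slc38a3 took the 5 smallest mean absolute differences from it over the 6 libraries, on log2(RPKM + 1) centred on each gene's mean. The nearest was C7, a terminal complement component gene, at 0.116. Its levels were 1.23, 1.49 and 1.85 RPKM in control, then 0.77, 9.72 and 9.74 in CTX. Mro (0.253) had 6.24, 6.17 and 13.0, then 4.98, 33.5 and 35.0 RPKM. Klhl31 (0.259) had 0.95, 1.64 and 2.12, then 0.57, 6.25 and 6.94. All of these were high in CTX 2 and 3 and lowest in CTX 1. Aard (0.261) had 4.19, 3.23 and 8.66, then 3.56, 28.5 and 24.85 RPKM, and Mtcl1 (0.263) had 2.48, 3.30 and 3.57, then 1.90, 11.6 and 10.4. All 5 were higher in control 3 than in the other controls, which Slc38a3 was not. Among the other members Slc38a5 was the nearest to Slc38a3, at 0.59, and ranked 243 among the 14534 other genes.

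**Figure D3:**
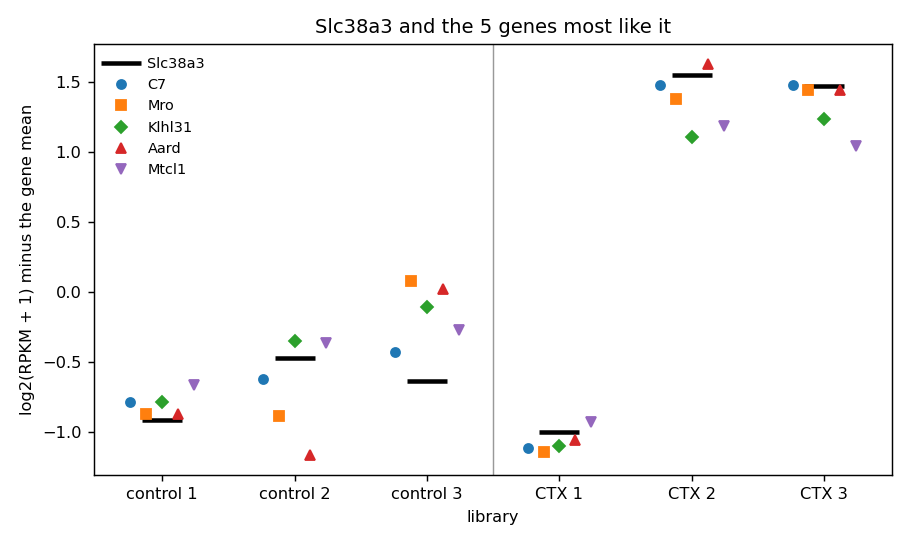
Level of Slc38a3 (bars) and the 5 genes most like it (symbols) in each library, as log2(RPKM + 1) minus the gene's own mean over the 6 libraries. The genes were chosen for this likeness, and all 6 are high in CTX 2 and 3.

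The system A transporters are Slc38a1, Slc38a2 and Slc38a4, which lie on chromosome 15 with no other protein-coding gene between them, 44.5 kb from Slc38a1 to Slc38a2 and 295.1 kb from Slc38a2 to Slc38a4. Slc38a2 (96687392 to 96699730), which encodes the stress-regulated transporter SNAT2, had control levels of 81.0, 73.2 and 71.0 RPKM and CTX levels of 57.7, 70.6 and 71.7. CTX 1 was the lowest, below the rest, and control 1 was the highest. The means were 75.1 ± 5.27 and 66.7 ± 7.77, and the difference was −0.17 ± 0.13 on the log2 scale. Slc38a1 (96571418 to 96642913), encoding SNAT1, had 13.9, 14.6 and 10.9, then 8.45, 14.9 and 14.9 RPKM. Control 3 and CTX 1 were its low libraries, and the difference was −0.07 ± 0.24, or 0.18 ± 0.14 without CTX 1. Slc38a4 (96994820 to 97055956), an imprinted gene encoding SNAT4, was far lower, with 1.80, 1.87 and 3.24, then 0.95, 2.92 and 3.12 RPKM. It was high in control 3 and CTX 2 and 3, as Slc38a5 was, with means of 2.3 ± 0.812 and 2.33 ± 1.2 and 73 to 275 reads in a library. The 3 neighbours thus had different low libraries, except that each was lowest in CTX 1.

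Slc38a7 and Slc38a9 encode lysosomal members. SNAT7 exports glutamine from the lysosome, and SLC38A9 reports lysosomal arginine to the kinase complex mTORC1. Slc38a9, on chromosome 13 (112660751 to 112738749), had control levels of 4.63, 4.81 and 5.85 RPKM and CTX levels of 3.82, 4.25 and 3.92. All CTX libraries lay below all controls, with means of 5.1 ± 0.659 and 4 ± 0.225. It was the only one of the 9 members tested whose groups did not overlap (11.1%), with CTX lower, where the share of all genes tested with CTX lower was 5.50% and with CTX higher 3.32%. The difference was −0.28 ± 0.13 on the log2 scale (95% interval −0.60 to 0.03), and it lay between −0.34 and −0.20 with each library left out in turn. An antisense gene shares 182 of the 16704 exonic bases of Slc38a9, and no source used here says whether reads were counted by strand. Slc38a7, on chromosome 8 (95835920 to 95853539), had 11.7, 12.1 and 10.45, then 11.1, 10.47 and 9.97 RPKM. The groups overlapped through control 3, and the difference was −0.11 ± 0.11.

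Slc38a10, Slc38a6 and Slc38a11 are the less studied members. Slc38a10, on chromosome 11 (120103960 to 120151346), was the steadiest, at 29.6, 30.45 and 31.8 RPKM in control, then 30.6, 31.4 and 30.3 in CTX. Its coefficient of variation over the 6 libraries was 2.51%, where the median of all genes tested was 18.7% and 0.172% of them had a smaller one. The difference was 0.01 ± 0.09 (95% interval −0.22 to 0.24). The transcript Gm11769 on the opposite strand shares 367 of its 6421 exonic bases and had 0.18 to 0.89 RPKM across the libraries. Slc38a6, on chromosome 12 (73286779 to 73354049), had 2.83, 3.34 and 2.81, then 2.25, 3.04 and 2.89 RPKM, with CTX 1 the lowest, and the difference was −0.10 ± 0.15.

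Slc38a11, on chromosome 2 (65316430 to 65364034), was near the limit of detection and was below 1 RPKM in every library. Its control levels were 0.45, 0.70 and 0.57 RPKM and its CTX levels 0.26, 0.23 and 0.38, from about 20 to 48 reads in a library. All CTX libraries lay below all controls, and the control mean was 1.98 times the CTX mean. The gene was left out of the fit by the filter on low values. In a fit of 27883 genes without that filter its difference was −0.29 ± 0.09, which the pseudocount of 1 shrinks, with a limma adjusted p of 0.979.

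The members were also summed by class. System N, higher in control 3 and CTX 2 and 3 than in the other libraries, held 20.2, 17.6 and 53.7 RPKM in control, then 12.2, 116 and 110 in CTX, which is 12.1, 11.1 and 28.2% and then 9.57, 45.8 and 44.5% of the family sum. System A held 96.8, 89.7 and 85.1, then 67.1, 88.4 and 89.7 RPKM, and was lowest in CTX 1. The lysosomal members held 16.3, 16.9 and 16.3, then 15, 14.7 and 13.9, and the less studied members 32.9 to 35.1 in control and 33.1 to 34.7 in CTX. The ratio of Slc38a5 to Slc38a3 was 2.11, 0.922 and 5.66 in control, then 1.01, 1.88 and 1.89 in CTX. Control 3 thus had the most Slc38a5 for its Slc38a3, and in control 2 Slc38a5 was the lower of them.

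**Figure D4:**
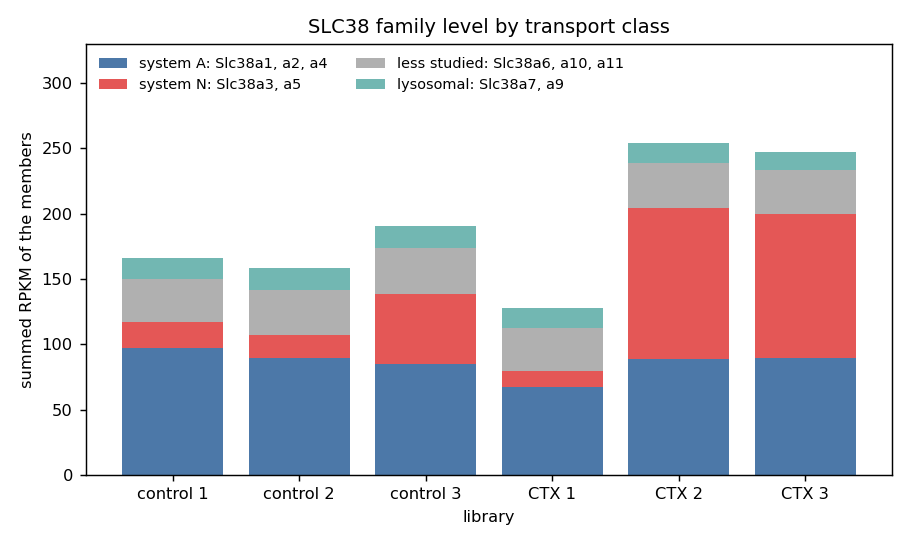
Summed RPKM of the members in each library, stacked by class. The system N part was 116 and 110 in CTX 2 and 3 and at most 53.7 in the other libraries, while the system A part stayed between 67.1 and 96.8.

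In the limma fit across all genes, 9 of the 10 members passed the filter of at least 1 RPKM in at least 3 libraries, and none of them through 1 group alone. With a threshold of 0.05 on the Benjamini-Hochberg adjusted p, none of the 9 was called, and 0 (0%) of all 14535 genes tested were. None of the 9 had an unadjusted p under 0.05 either, where 501 of all genes (3.45%) did. The lowest unadjusted p in limma was 0.0694, for Slc38a9, and every member had an adjusted p of 1.0. Of the 9 differences 3 were positive and 6 negative with a median of −0.07, and over all genes tested the median was −0.01. The intervals of Slc38a3 and Slc38a5 were the widest of the 9. The percentages of called genes belong to the comparison by which the family was chosen.

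**Figure D5:**
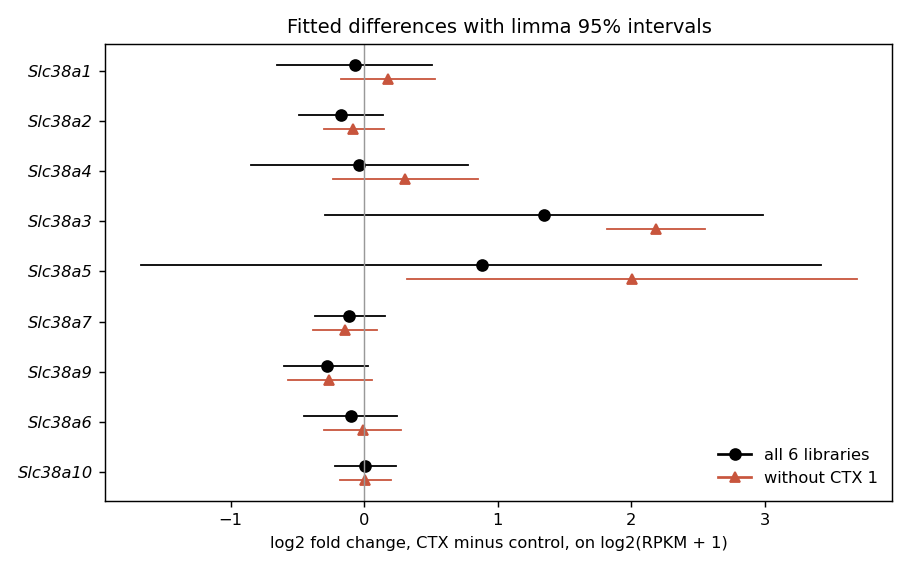
Fitted log2 difference, CTX minus control, with its 95% limma interval for the 9 members tested, from all 6 libraries (circles) and without CTX 1 (triangles). Slc38a3 was 1.35 with all libraries and 2.19 without CTX 1, and Slc38a10 was 0.01 with an interval from −0.22 to 0.24.

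Other genes of amino acid transport and sensing were taken from 4 lists of 119 genes in all, each gene counted once. Of these 98 were tested and 0 were called in limma, beside 0% of all genes. Groups did not overlap in 9 genes with CTX higher (9.18%, beside 3.32% of all genes) and in 6 with CTX lower (6.12%, beside 5.50%). At an unadjusted p under 0.05 there were 4 (4.08%, beside 3.45%), named here after their values were seen. The stress transcription factor gene Ddit3 had 14.85, 14.86 and 16.1 RPKM in control, then 11.7, 9.90 and 9.54 in CTX (log2 difference −0.52 ± 0.12). The aspartate aminotransferase gene Got1 had 24.9, 24.35 and 19.1, then 32.0, 33.2 and 29.6 (0.46 ± 0.13). The cysteinyl-tRNA synthetase gene Cars had 7.31, 8.35 and 8.23, then 10.4, 9.58 and 10.1 (0.30 ± 0.11), and Rragd, a Rag GTPase gene of lysosomal sensing, had 10.6, 12.55 and 6.26, then 6.70, 4.05 and 4.19 (−0.83 ± 0.28). The groups did not overlap in Ddit3, Got1 and Cars and did in Rragd. All 4 had adjusted p-values of 1.0.

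Of 43 genes of other amino acid transporter families 24 were tested, 14 with positive and 10 with negative differences and a median of 0.05. The most abundant were Slc3a2, the heavy chain shared by several exchangers, at 78.6 ± 1.93 RPKM in control against 88.0 ± 4.68 in CTX (log2 difference 0.16 ± 0.10), and the taurine transporter gene Slc6a6 with 95.95, 118 and 38.2, then 88.5, 40.2 and 37.6. Slc6a6 was high in controls 1 and 2 and CTX 1, where Slc38a5 was low. In the glutamine list 19 of 20 genes were tested, 16 of them positive with a median of 0.10. The glutamine synthetase gene Glul had 127 ± 13.8 and 132 ± 22.7, and the ornithine aminotransferase gene Oat 90.1 ± 10.7 and 80.5 ± 2.93.

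In the list of lysosomal amino acid sensing, in which SLC38A9 takes part, 33 of 33 genes were tested, with 19 positive, 14 negative and a median of 0.02. Sec13, a GATOR complex member that also serves vesicle coats, had a control mean of 51.6 ± 1.94 RPKM and a CTX mean of 57.9 ± 2.1, and the Rag GTPase gene Rraga 47.0 ± 1.58 and 51.0 ± 2.93. The groups did not overlap in either gene, with CTX higher, though Rraga was at 48.76 RPKM in control 2 and 48.93 in CTX 2. Mlst8 of this list also had CTX higher without overlap, while Fnip1 and Nprl3 had CTX lower, as Slc38a9 had. Over all genes tested the groups did not overlap in 3.32% with CTX higher and 5.50% with CTX lower. In the amino acid response list, to which the known regulation of Slc38a2 by ATF4 belongs, 20 of 27 tested genes were positive with a median of 0.12. Atf4 itself had 111, 121 and 96.8, then 149, 101 and 99.4 RPKM, highest in CTX 1, where Slc38a2 was lowest. The part of ATF4 in the Slc38a2 level was not tested.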

How the data were processed

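RNA of whole ovaries was sequenced in 3 control and 3 CTX libraries, grouped by the sample titles. The authors deposited 1 table per library with 46078 genes, whose values are taken as RPKM rounded to 2 decimals. No header names the unit. In genes of up to 1000 exonic bases and 15 reads, 97.7 to 98.1% of values were multiples, within 0.2 reads, of 1 step per library, which gives depths of 15800000 to 22100000 reads. The submitters' processing notes name Bowtie 0.12.2 and mm10. For the counter, annotation, filters and strand use, nothing is given in the sources used here. Positions and exon lengths came from GENCODE M21 on GRCm38, the assembly of mm10 (98.0% of identifiers matched), and 30 damaged symbols were restored. Read numbers behind values are approximate, since the authors' gene lengths are not known.

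CTX was compared with control on log2(RPKM + 1) with limma 3.58.1 in R 4.3.3 (moderated variances with a trend, two-sided, Benjamini-Hochberg over all genes tested), for genes that reached 1 RPKM in 3 or more of the 6 libraries. Fold changes of low genes are understated on this scale. The procedure was also run on simulated data, with larger differences than those of the members and with noise independent between genes. That run does not show how well differences of the members' size would be called. Named genes are all members, every called gene of each amino acid list or else its 2 most abundant, the most abundant of each marker list, and the 5 genes most like Slc38a3. Other genes given as examples were picked with their values already known. The members and lists were chosen with earlier results of these data known. Alternatives were scaling, pseudocount, filter, variance trend, the replicate number as a block and each library left out.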

Additional observations from a re-analysis of the deposited data

How the results depend on the processing

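The count of members called was 0 under every alternative with all 6 libraries and 0 to 1 with each library left out. The 1 is Slc38a3 without CTX 1. The count over all genes was 0 under the former and 0 to 5 with a library left out, again through CTX 1, and the count of amino acid list genes called was 0 throughout. For Slc38a3 the log2 difference ran from 1.35 to 1.44 over trimmed-mean scaling, quantile normalization, pseudocounts of 0.5 and 0.1, no filter, a floor of 5 on the mean RPKM, no variance trend and the replicate block, and from 0.91 to 2.19 with a library left out. For Slc38a5 these ranges were 0.88 to 0.95 and 0.29 to 2.01. Slc38a2, Slc38a6, Slc38a7 and Slc38a9 stayed negative throughout.

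Directions turned in members whose difference was near 0, and the cause was not tested. After quantile normalization Slc38a4 was 0.01 and Slc38a10 was −0.03. With a library left out Slc38a1 ran from −0.19 to 0.18, Slc38a4 from −0.23 to 0.31 and Slc38a10 from −0.01 to 0.03. With a mean RPKM of at least 5, Slc38a4, Slc38a6 and Slc38a9 had no value.

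The labels used here do not say whether equal replicate numbers pair the libraries, and the values cannot decide it. Deviations from group means correlated at 0.40, −0.54 and 0.60 across genes for numbers 1, 2 and 3. They also correlated at 0.61 for control 2 with CTX 1, so they followed the luteal division of the libraries. With the replicate as a block 0 members and 0 genes were called, as without it. Depth limits Slc38a11 (20 to 48 reads) and Slc38a4 (73 to 275).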
